A study of Mus musculus with 9 samples.

Results

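Chemokine receptors are seven-pass membrane proteins through which leukocytes sense chemokine gradients. Nearly all of them couple to Gi proteins, whose beta-gamma subunits activate phosphoinositide 3-kinase gamma and, through Dock2, the Rac-dependent movement of the cell, and RGS proteins and arrestins end the signal. In the mouse, classical monocytes (Ly6C high) carry much Ccr2, the receptor for Ccl2, Ccl7 and Ccl12 that takes them out of the bone marrow and into inflamed tissue. Nonclassical monocytes (Ly6C low) carry much Cx3cr1, the fractalkine receptor, with which they patrol vessels and survive. Cxcr4, the receptor for Cxcl12, holds myeloid cells in bone marrow and spleen.

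Transcripts of 9 receptors of this family were followed in splenic monocytes: Ccr1, Ccr2, Ccr7, Cx3cr1, Cxcr2, Cxcr3, Cxcr4, Cxcr5 and the atypical receptor Ccrl2. They were listed by name, out of 46072 genes in the tables and 26108 with a count above 0 in at least 1 library, and each of the 9 had a value and an adjusted p in each comparison. A further 16 receptors, 27 ligands, and 32 genes for coupling and desensitisation served as the setting. The cells came from female C57BL/6 mice with no genetic change, and were left after antibodies and magnetic beads had removed other cell types, without stimulation in culture. The 3 Con libraries came from mice gavaged with water for 6 days, and the 3 Van libraries from mice gavaged for 6 days with vancomycin, an antibiotic, at 2 mg per mouse per day. The 3 VanLip libraries came from mice that had the same vancomycin and then L654, a lipid of gut Bacteroidota that TLR2 recognises, into the retro-orbital vein on days 7, 9 and 11. After the gavage all groups had a rest without antibiotic until the spleens were taken, of 8 days in the description of these mice and 6 to 8 days in the labels, and the lipid was given within that rest. No group received the lipid without vancomycin. The methods name 3 mice per group for the sequencing, as many as the libraries. They also state a purity of the isolated cells that is short of complete.

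The Con and Van libraries held 16151385 to 23018927 fragments and the VanLip libraries 42625868 to 46180176, and 1 read was worth 1.33 counts in the first 2 groups and 2 in VanLip. Under tximport's default these values correspond to reads of 100 and 150 bases, whereas the methods state a single read length for all libraries. Whether VanLip was a separate sequencing run was not given in the sources used here. The description of the sequenced mice names injections for VanLip only, and does not say whether Con and Van had vehicle. Depth, read size, any such batch, any difference in injection and the lipid thus cannot be told apart in either VanLip comparison. Markers of both monocyte subsets were present in every library. The 9 nonclassical markers summed to 2523 to 3565 FPKM (fragments per kilobase of transcript, scaled to library depth) per library and the 8 classical markers to 1075 to 2560. The nonclassical sum was the larger in 8 of the 9 libraries and the classical sum in VanLip replicate 1, at 2560 against 2523. The 10 neutrophil markers summed to 103 to 140 FPKM, of which Csf3r, which monocytes share, made up 82.7 to 110, and Ly6g was at 0 in all 9 libraries. The B cell, T cell and NK cell lists each summed to 4.53 to 16.7 FPKM. The 6 red pulp macrophage markers, several of which monocytes share, summed to 1265 to 1931 FPKM.

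Where reads could be ambiguous was checked first. On GRCm38 with GENCODE M21, Ccr2 lies at chr9:124101950-124113557 on the plus strand. Of its 6709 windows of 100 bases, 0.79% also occur in another gene, and none of the windows of the other 8 receptors do. Cx3cr1 (chr9:119901616-120069879, minus strand) has a long gene model that spans 9 other genes, but its exons share no base with another gene on its strand and 78 on the other. Cxcr5 shares 110 exon bases with Bcl9l on the opposite strand. The kit marks strand, but whether the counting used it was not given in the sources used here.

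The promoters of Cxcr4 and Ccrl2 are shown because these were the receptors with the lowest VanLip levels relative to Con. Each is the 250 bases before a RefSeq start site on GRCm38.p6, 5′ to 3′ on the gene's own minus strand, and capitals mark matches to the motifs searched. The motifs were searched on both strands. They were the TATA box (TATAAA), the GC box (CCGCCC), the PU.1 motif (GAGGAA), the C/EBP motif (TTGCNNAA), the glucocorticoid half-site (AGAACA) and the cyclic AMP half-site (TGACG). The NF-kB motif was GGGA and CC with any 4 bases between them, and the AP-1 motif was TGA and TCA with any base between them. The windows lie at chr1:128592300-128592549 for Cxcr4 and chr9:111057519-111057768 for Ccrl2, which has 3 RefSeq start sites, of which this is the most upstream:

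Cxcr4: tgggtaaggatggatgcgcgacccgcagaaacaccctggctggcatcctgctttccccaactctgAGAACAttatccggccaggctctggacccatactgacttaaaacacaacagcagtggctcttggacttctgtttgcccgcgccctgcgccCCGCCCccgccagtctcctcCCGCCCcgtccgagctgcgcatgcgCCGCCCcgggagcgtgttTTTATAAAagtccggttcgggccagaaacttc

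Ccrl2: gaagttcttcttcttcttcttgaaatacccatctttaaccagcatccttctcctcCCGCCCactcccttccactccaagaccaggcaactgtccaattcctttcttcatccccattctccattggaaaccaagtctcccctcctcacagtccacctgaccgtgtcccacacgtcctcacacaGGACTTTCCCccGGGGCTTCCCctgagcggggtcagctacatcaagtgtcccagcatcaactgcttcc

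The Cxcr4 window held a TATA box beginning 30 bases before the start site, where its reverse match overlaps it, 3 GC boxes and a glucocorticoid half-site at position -185. The Ccrl2 window held 2 NF-kB matches, at positions -68 and -56 on the other strand, and a GC box. The windows of the other 2 Ccrl2 start sites held neither, but a glucocorticoid half-site and a cyclic AMP half-site each. Over 32851 promoter windows of the same length, 12.4% held the TATA letters, 32.7% a GC box, 17.6% an NF-kB match and 16.1% the glucocorticoid half-site. The motifs with no match in these 2 windows were found in 6.75% (AP-1), 23.3% (PU.1), 9.56% (C/EBP) and 17.8% (cyclic AMP half-site) of them. A match describes the letters only.

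By level, the 9 receptors fell into 3 tiers. In Con the upper tier was Cxcr4 at 409 ± 48.1 FPKM, Ccr2 at 165 ± 7.56, Ccrl2 at 121 ± 8.15 and Cx3cr1 at 120 ± 4.49 (SD, n = 3), each above at least 98.1% of the 26108 genes. Ccr7, the receptor for Ccl19 and Ccl21 of lymphoid tissue, followed at 15.9 ± 3.96 FPKM, and Ccr1, a receptor for Ccl3 and Ccl5, at 3.08 ± 0.519. The lowest tier was Cxcr3 at 0.534 ± 0.148 FPKM, Cxcr2 at 0.349 ± 0.111 and Cxcr5 at 0.126 ± 0.00817, receptors known mainly from T cells, neutrophils and B cells respectively.

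The order within the upper tier differed between groups, and not every neighbour was separate. In Con, Cxcr4 was above Ccr2 and Ccr2 above the other two in every library, whereas Ccrl2 and Cx3cr1 overlapped. In Van, Cxcr4 remained on top at 401 ± 75.9 FPKM, and Ccrl2 at 110 ± 32.3, Cx3cr1 at 107 ± 13.7 and Ccr2 at 87.2 ± 14.8 overlapped one another. In VanLip, Ccr2 was first by mean at 201 ± 51.0 FPKM, then Cxcr4 at 167 ± 44.1 and Cx3cr1 at 145 ± 19.0, all overlapping, and Ccrl2 at 71.0 ± 17.7 was below these in every library.

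**Figure D1:**
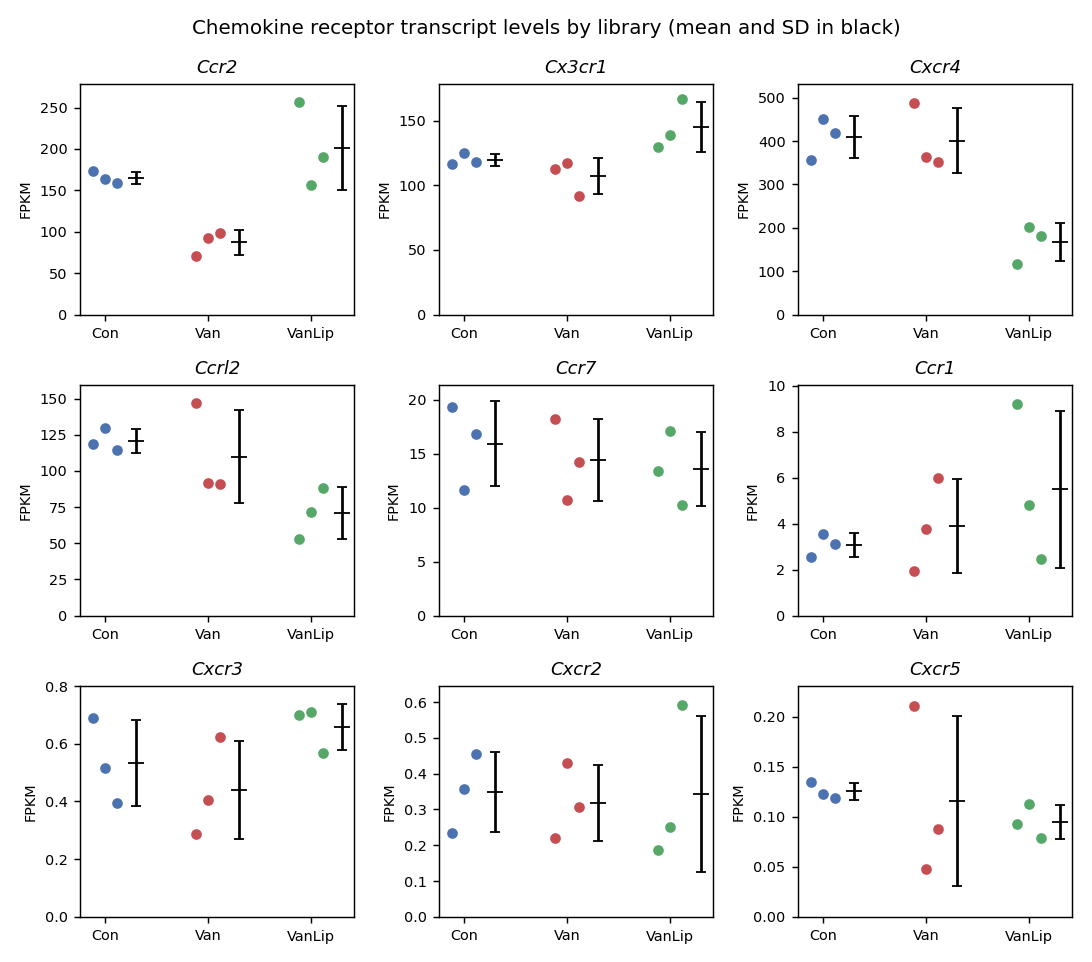
FPKM (vertical axes, from 0, each panel on its own scale) of the 9 receptors in each library of Con, Van and VanLip, with the group mean and SD in black. The 3 Van libraries have the lowest Ccr2, between 70.4 and 98.2 FPKM, and the 3 VanLip libraries the lowest Cxcr4, between 117 and 201 FPKM.

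The first comparison asked how the receptors differed after vancomycin. Of the 9, Ccr2 alone passed the DESeq2 Wald test over all genes (adjusted p no higher than 0.05, termed called from here on), and it was lower in Van. Among the 18516 genes tested, 4.34% were called, which splits into 2.27% higher and 2.06% lower in Van, and a single call among 9 genes is not set apart from that share. Ccr2 read 173, 163 and 159 FPKM in Con replicates 1 to 3 and 70.4, 93.0 and 98.2 in Van. The groups did not overlap, with the highest Van library well under the lowest Con library. The normalized count was 1.78-fold lower in Van, a log2 difference of -0.83 ± 0.18 (SE), with a 95% confidence interval of -1.19 to -0.48 and a DESeq2 adjusted p of 0.00048.

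This call was sensitive to the test. With edgeR's quasi-likelihood test the log2 difference was the same, -0.83, at an adjusted p of 0.0561. Limma on log2 FPKM with a pseudocount of 1 gave an adjusted p of 0.143. DESeq2 gave -0.81 at 0.118 without Con replicate 1, and -0.83 at 0.191 with the replicate number as a block. The difference stayed between -0.96 and -0.68 in all 20 alternatives.

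Cx3cr1 was not called in Van. It read 116, 125 and 118 FPKM in Con and 113, 117 and 91.5 in Van, groups that overlapped in FPKM but not in normalized counts. The log2 difference was -0.17 ± 0.11 (95% interval -0.39 to 0.05, DESeq2 adjusted p = 0.517). Over all genes tested, 20.8% had groups whose normalized counts did not overlap, against Ccr2 and Cx3cr1 among the 9. The log2 ratio of Cx3cr1 to Ccr2, in FPKM, was -0.58, -0.39 and -0.42 in Con and 0.68, 0.33 and -0.10 in Van. The Van ratio was thus above every Con library in each Van library, and Cx3cr1 exceeded Ccr2 in Van replicates 1 and 2. The difference of the means was 0.77, with an exact two-sided permutation p of 0.1, the smallest that 3 against 3 can give.

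Cxcr4 differed by -0.03 ± 0.18 on the log2 scale between Van and Con (95% interval -0.39 to 0.32), and Ccrl2 by -0.14 ± 0.27 (-0.68 to 0.40). The Van spread of Ccrl2 came from Van replicate 1, at 147 FPKM against 91.8 and 90.8 in the other two. Ccr1, Ccr7, Cxcr2, Cxcr3 and Cxcr5 had log2 differences of -0.29 to 0.33, with adjusted p-values of 0.838 or more. The 95% interval of Ccr7 was -0.61 to 0.30. Those of Ccr1, Cxcr2, Cxcr3 and Cxcr5 reached past 1 in size in 1 direction or both, so that a change of 2-fold lay within them.

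In bulk libraries, fewer cells of a type and less RNA per cell cannot be told apart, and classical monocytes are the cells with most Ccr2. The 8 classical markers summed to 1222 to 1548 FPKM in Con, 1075 to 1915 in Van and 1447 to 2560 in VanLip, with none at 0. Single markers differed in sign. Ly6c2, which encodes Ly6C, read 377 to 414 FPKM in Con and 268 to 388 in Van (log2 difference -0.34, adjusted p = 0.11), whereas Vcan, which encodes the matrix proteoglycan versican, rose in Van by 1.54 on the log2 scale (adjusted p = 0.0122). None of the 9 nonclassical markers was called. Of other cells, the 6 NK cell markers summed to 9.94 to 14.3 FPKM in Con and 4.53 to 7.78 in Van. Nearly all of that was Klrk1, at a mean of 11.1 FPKM in Con and 5.47 in Van (log2 difference -0.91, adjusted p = 0.000471), while the other 5 were under 1 FPKM, and 4 of the 6 had a difference below 0 and 2 above. NK1.1-positive cells were among those the isolation removes. Differences below 0 were seen for 8 of 8 B cell markers (median -0.52), 7 of 8 T cell markers (median -0.38) and 4 of 4 platelet markers (median -0.60), with none called. Of the 7 conventional dendritic cell markers 6 had a difference below 0 and 1 above (median -0.18), with Clec9a and Xcr1 called lower. Of the 4 plasmacytoid dendritic cell markers 3 were below 0 and 1 above (median -0.37), with Siglech called lower. From Van to VanLip 5 of the 7 were above 0 and 2 below, and 3 of the 4 were above and 1 below. Clec9a and Siglech were called higher there, whereas Xcr1 was not called (0.12, adjusted p = 0.845). In Van against Con, 5 of the 6 red pulp macrophage markers had a difference above 0, with 1 called, Vcam1 (0.46, adjusted p = 0.0106). Their sum was 1315 to 1528 FPKM in Con and 1500 to 1931 in Van. The part of cell makeup in the Ccr2 difference was not tested.

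The next comparison set VanLip against Van and asked what followed the lipid. Ccr2 and Cx3cr1 rose and Cxcr4 fell, 3 of 9 against 9.86% of the 18025 genes tested, of which 4.58% rose and 5.28% fell. Ccr2 read 256, 156 and 190 FPKM in VanLip, so that its lowest library was above the highest Van library of 98.2. The normalized count was 2.06-fold higher than in Van, a log2 difference of 1.04 ± 0.18 (95% interval 0.69 to 1.40, DESeq2 adjusted p = 7.38e-07). All 20 alternatives kept this call, with values from 0.79 to 1.19.

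Against Con, Ccr2 in VanLip was not called, and the groups overlapped. The log2 difference was 0.21 ± 0.18 (95% interval -0.14 to 0.57, adjusted p = 0.593). VanLip replicate 1, the highest library at 256 FPKM, set its sign, since the difference was -0.04 without it. The 3 contrasts share groups, so the fall in Van and the rise from Van to VanLip rest on the same 3 Van libraries. Beside the Ccr2 rise, Ly6c2 rose by 0.39 (adjusted p = 0.0262), the only call among the 8 classical markers, of which 7 had a difference above 0 (median 0.28 on the log2 scale). Against Con, 8 of 8 had a difference above 0 (median 0.37) and none was called. Vcam1 fell from Van to VanLip by 0.50 (adjusted p = 0.00176). The part of these cells in the rise was not tested.

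Cx3cr1 read 130, 139 and 166 FPKM in VanLip, higher than every Van and every Con library. The normalized count was 1.35-fold above Van, a log2 difference of 0.43 ± 0.11 (95% interval 0.21 to 0.65, DESeq2 adjusted p = 0.00264). The 3 limma fits on log2 FPKM did not call it, at adjusted p-values of 0.143, 0.134 and 0.0598. Against Con the difference was 0.26 ± 0.11 (95% interval 0.04 to 0.48, adjusted p = 0.158), although the groups did not overlap. The 9 nonclassical markers summed to 2656 to 3565 FPKM in Van and 2523 to 3382 in VanLip, with 5 of the 9 below 0 and 4 above from Van to VanLip (median -0.04) and 1, Eno3, called higher (0.60, adjusted p = 0.0247). The part of these cells in the Cx3cr1 rise was not tested. The log2 ratio of Cx3cr1 to Ccr2 was -0.98, -0.16 and -0.19 in VanLip, on average 0.75 under that of Van (a difference of -0.75, exact two-sided permutation p = 0.1, the smallest possible) and 0.02 above that of Con (p = 1). In normalized counts the difference from Van was -0.59 (exact permutation p = 0.3), and the 2 groups overlapped.

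Cxcr4 had the largest difference of the 9 receptors that passed the test. It read 356, 451 and 419 FPKM in Con, 488, 364 and 351 in Van and 117, 201 and 182 in VanLip. Every VanLip library was below every other library, and Con and Van overlapped. The normalized count in VanLip was 2.49-fold lower than in Con, a log2 difference of -1.32 ± 0.18 (95% interval -1.67 to -0.96, DESeq2 adjusted p = 2.26e-10). It was 2.43-fold lower than in Van, -1.28 ± 0.18 (-1.64 to -0.92, adjusted p = 3.89e-10). The call against Van held in all 20 alternatives, and that against Con was lost in limma with a pseudocount of 1 (adjusted p = 0.0551). Cxcr4 was the only one of the 9 called in VanLip against Con, where 6.67% of the 16552 genes tested were called, 2.98% higher and 3.69% lower in VanLip. Of those calls, 44.7% were higher in VanLip, or 56.8% with TMM library sizes. In the same comparison none of the 8 classical or 9 nonclassical markers was called. The cell markers called were all lower, namely Klrk1 (-0.74, adjusted p = 0.00543), Ngp, Mmp9, Xcr1 and Cd209a. The platelet markers had a difference below 0 in 4 of 4 (median -0.77), with none called. The part of cell makeup in the Cxcr4 fall was not tested.

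Ccrl2, which binds chemerin and does not couple to G proteins, read 118, 130 and 114 FPKM in Con and 53.1, 71.4 and 88.5 in VanLip. The groups did not overlap, and neither did VanLip and Van. The log2 difference from Con was -0.80 ± 0.27 (95% interval -1.33 to -0.26) and missed the threshold in DESeq2 at an adjusted p of 0.052. It was not called in 15 of the 20 alternatives, among them edgeR (0.0941) and limma with a pseudocount of 1 (0.173). It passed when only Con and VanLip were fitted (8.57e-05), with at least 10 counts in at least 3 libraries (0.0499), and in 3 of the 9 fits with 1 library left out. Against Van it was -0.66 ± 0.27 (adjusted p = 0.112). Groups that did not overlap were seen for 23.5% of all genes in VanLip against Con and 25.9% in VanLip against Van. Among the 9 they were seen for 4 receptors in each, Cx3cr1, Cxcr4 and Ccrl2 in both, Cxcr5 against Con and Ccr2 against Van.

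**Figure D2:**
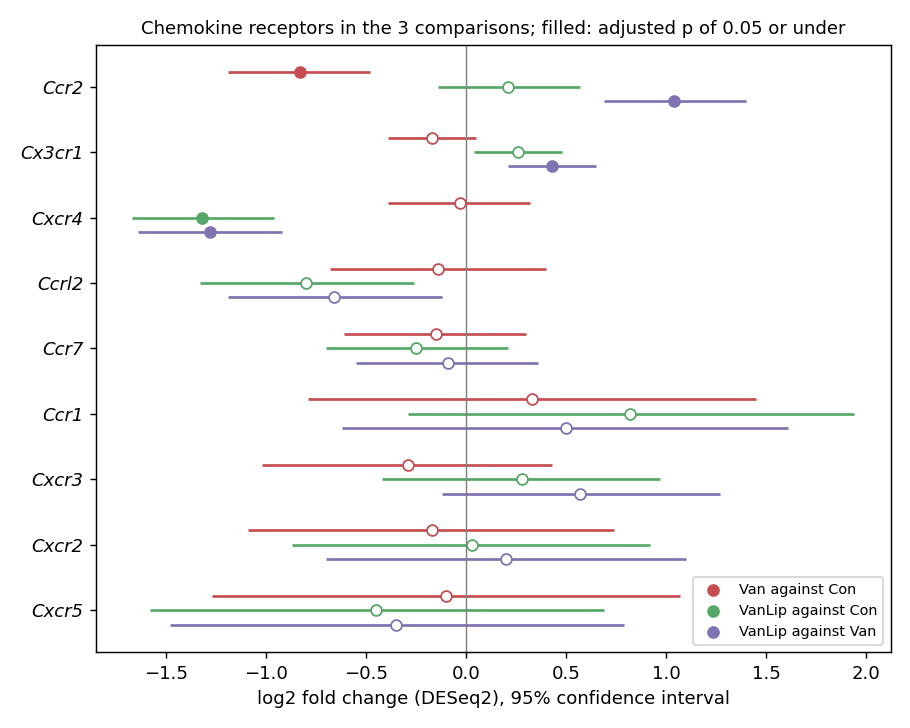
Log2 fold changes from DESeq2 (horizontal axis) of the 9 receptors in the 3 comparisons, with 95% confidence intervals as lines, and filled circles at an adjusted p of 0.05 or under. Ccr2 lies at -0.83 in Van relative to Con and at 1.04 in VanLip relative to Van, and Cxcr4 at -1.32 and -1.28 where VanLip is set against Con and Van.

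The other members were not called in either VanLip comparison. Ccr1 ranged widely, at 2.54 to 3.57 FPKM in Con, 1.94 to 6.00 in Van and 2.47 to 9.20 in VanLip, with a coefficient of variation of 62.2% in VanLip. VanLip replicate 1 had the highest Ccr1 and the highest Ccr2, and the lowest Cxcr4 and Ccrl2, of all 9 libraries. Ccr7 stayed between 10.3 and 19.4 FPKM, with overlapping groups and log2 differences of -0.25 and -0.09 from Con and Van. Cxcr3 read 0.567 to 0.711 FPKM in VanLip and 0.288 to 0.690 in the other groups. Cxcr2 and Cxcr5 rested on 12.6 to 170 normalized counts per library, and their 95% intervals in the VanLip comparisons ran from -0.87 to 1.10 for Cxcr2 and from -1.58 to 0.79 for Cxcr5. Beside these receptors of other cells, the B cell list summed to 8.67 to 12.8 FPKM, mostly Cd79b at 7.25 to 10.5, and the T cell list to 7.55 to 16.7, mostly Cd4 at 4.85 to 11.0. The neutrophil list summed to 110 to 113 FPKM in Con, 113 to 140 in Van and 103 to 132 in VanLip. In Van against Con, 6 of its 9 tested members had a difference below 0 and 3 above, with Retnlg called lower (-2.60, adjusted p = 0.0224) and Csf3r called higher (0.22, 0.0475). In VanLip against Con, 6 of 8 were below 0, with Ngp (-1.94, 0.0373) and Mmp9 (-1.61, 0.0188) called lower. The part of these cells was not tested.

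**Figure D3:**
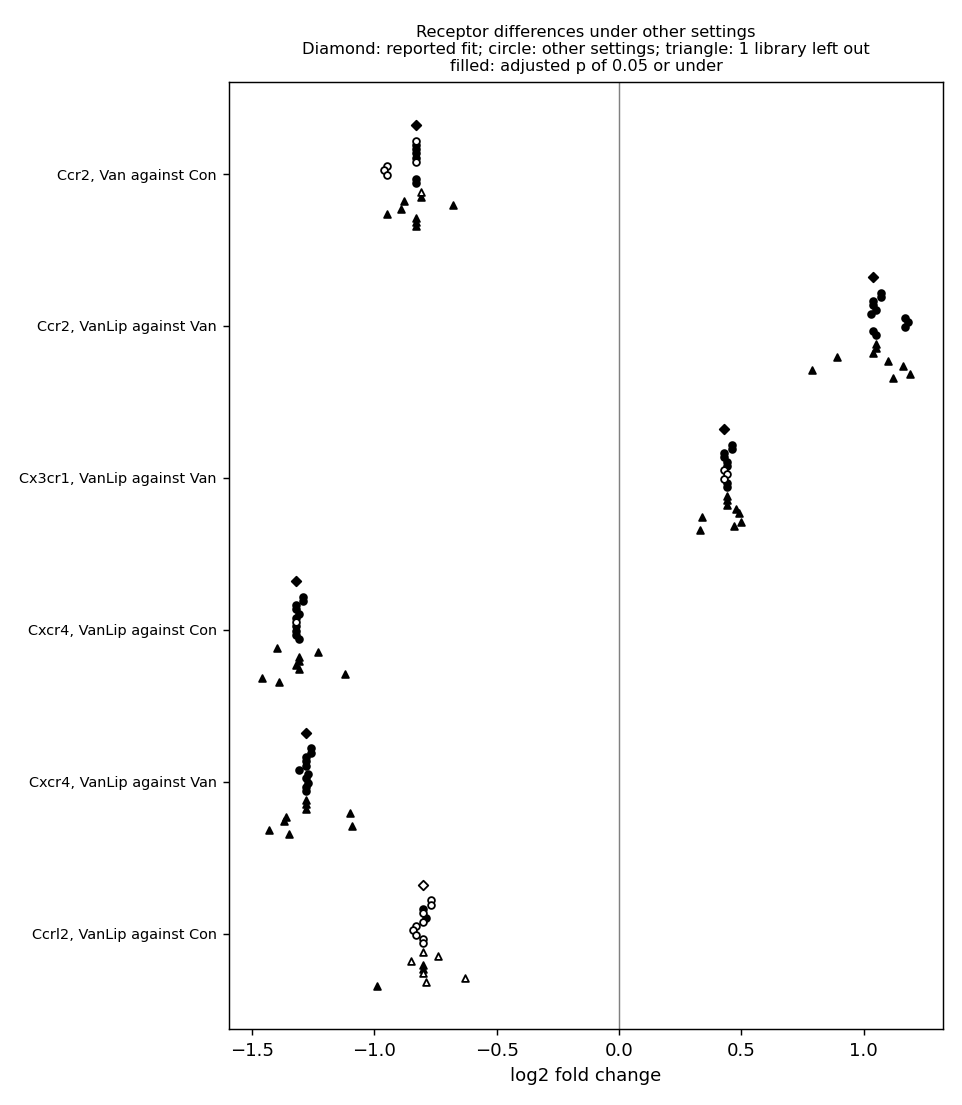
Log2 fold change (horizontal axis) of 6 receptor differences, one block each, in the reported fit (diamond), 11 other settings (circles) and fits that leave out 1 library (triangles), filled at an adjusted p of 0.05 or under. The Ccr2 rise and the Cxcr4 fall in VanLip against Van are filled throughout, and 6 of the 20 alternatives to the Ccr2 fall in Van are open.

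Receptors outside the 9 were mostly at low levels. Of the 16, Ccr3, the eotaxin receptor, at 8.68 to 23.7 FPKM, and Cmklr1, the chemerin receptor, at 9.72 to 16.1, had the highest levels. Ccr3 stood at this level while 4 eosinophil markers summed to 1.54 to 3.14 FPKM. In Van against Con, 2 of the 14 tested fell and none rose, and the median log2 difference was -0.52 against -0.01 over all genes. In VanLip against Con, 1 of 11 fell (median -0.31 against 0.01), and in VanLip against Van none of 13 was called (median 0.12 against 0.01). The shares called over all genes were 4.34%, 6.67% and 9.86% in the same order. Xcr1, which marks cross-presenting dendritic cells, fell in Van by 0.85 on the log2 scale (adjusted p = 0.00897) and in VanLip by 0.73 (0.0182). Ccr1l1 fell in Van by 1.56 (adjusted p = 0.0352), from 52.5, 88.1 and 74.2 normalized counts to 31.5, 12.6 and 28.4. edgeR called neither in Van (0.108 for Xcr1, 0.157 for Ccr1l1). The Xcr1 call in VanLip was lost in 10 of 19 alternatives (0.149 in edgeR). Clec9a, of the same dendritic cells as Xcr1, was also lower in Van, by -1.12 (adjusted p = 1.55e-05), with Siglech of plasmacytoid dendritic cells at -0.89 (0.0474). Both were called higher from Van to VanLip, by 0.67 (0.0164) and 0.85 (0.0299), and neither was called in VanLip against Con, where Cd209a of conventional dendritic cells was called lower (-0.73, 0.028). The 7 markers of conventional dendritic cells summed to 133 to 158 FPKM in Con, 123 to 148 in Van and 117 to 161 in VanLip, with none at 0, and Xcr1 is among them. The 4 plasmacytoid markers, mostly Bst2, summed to 68.9 to 81.1 FPKM in Con, 75.2 to 84.4 in Van and 76.2 to 103 in VanLip. The part of these cells was not tested.

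The 7 receptor genes from Ccr9 to Ccr2 are neighbours at chr9:123678439-124113557, a region looked at after the values were seen. From Con to Van the log2 differences, in the order of the genes, were -0.64 for Ccr9, -0.67 for Cxcr6, -0.85 for Xcr1, 0.33 for Ccr1, -1.56 for Ccr1l1, 0.05 for Ccr3 and -0.83 for Ccr2. Xcr1, Ccr1l1 and Ccr2 were called, beside 4.34% of all genes tested, while Ccr1 and Ccr3 had values above 0. Under edgeR these calls were lost (adjusted p of 0.108 for Xcr1, 0.157 for Ccr1l1 and 0.0561 for Ccr2). From Van to VanLip the only gene called among the 7 was Ccr2, beside 9.86% of all genes tested.

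The calls among the ligands stand beside 4.34%, 6.67% and 9.86% of all genes called for Van/Con, VanLip/Con and VanLip/Van. Of 25 tested in Van against Con, 1 was lower, Ccl12, a ligand of Ccr2. Its normalized counts were 26.3, 20.0 and 33.4 in Con and 9.03, 4.57 and 9.19 in VanLip, and it was listed at 0 in all 3 Van libraries, so few counts that no fold is given. Its call in Van (adjusted p = 0.000246) had no adjusted p in 8 of the other settings and was kept in the 11 that gave one with a value for the gene. In VanLip against Con, 2 of 21 were lower. Ccl2, the main ligand of Ccr2, fell by 0.73 (adjusted p = 0.0232) with overlapping groups, and edgeR gave an adjusted p of 0.155. Cxcl3, a ligand of Cxcr2, fell by 2.32 (0.00661; 0.0941 in edgeR and 0.0984 with VanLip thinned), from 24.7, 64.0 and 50.1 normalized counts to 8.58, 3.66 and 15.5. In VanLip against Van, Ccl12 was higher (0.00916), Cxcl3 fell by 2.51 (0.00151) and Ccl4 by 0.66 (0.0324), 3 of 25. The Ccl4 call was lost in 8 of 20 alternatives (0.132 in edgeR), and the Ccl12 call in 3 of 16 (0.098 with only the 2 groups fitted). The medians over the ligands were -0.20, -0.13 and -0.20 in the 3 comparisons, against -0.01, 0.01 and 0.01 over all genes.

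Among 31 tested genes of coupling and desensitisation, 1 rose and 1 fell in Van, beside 4.34% of all genes. Pik3r5, which encodes the p101 regulatory subunit of phosphoinositide 3-kinase gamma, had normalized counts of 15831, 16559 and 15440 (Con), 27482, 25689 and 26714 (Van) and 19665, 16528 and 15514 (VanLip). All Van libraries were above all others. The rise from Con to Van was 0.74 ± 0.09 on the log2 scale (DESeq2 adjusted p = 1.73e-12), and from Van to VanLip it fell by 0.63 (adjusted p = 1.6e-09), both called in all 20 alternatives. Dock2, the Rac activator of chemotaxis, fell in Van by 0.28 (adjusted p = 0.000471; 0.0587 in edgeR). It rose by 0.17 from Van to VanLip (0.0443), a call kept in 6 of 20 alternatives.

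In VanLip, Rgs1 was lower, as was Cxcr4. Rgs1, a GTPase activator that damps Gi signals from chemokine receptors, had normalized counts of 25348, 39934 and 27496 (Con), 28535, 21714 and 25780 (Van) and 11213, 14040 and 15619 (VanLip). Every VanLip library was below every other library. The log2 difference was -1.18 ± 0.17 from Con (DESeq2 adjusted p = 2.62e-09) and -0.90 ± 0.17 from Van (1.37e-05), called in all 20 alternatives of each. Rgs3 and Gnb2 rose against Con by 0.51 (0.00777) and 0.23 (0.0159), and Rgs3 and Rgs19 rose against Van by 0.46 (0.0153) and 0.23 (0.0195), of which edgeR called none. In all, 2 were higher and 1 lower of 31 against Con, and 3 were higher and 2 lower against Van, with Dock2 and Pik3r5 counted in the latter, beside 6.67% and 9.86% of all genes. The medians over the 31 were 0.03, 0.02 and -0.02.

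**Figure D4:**
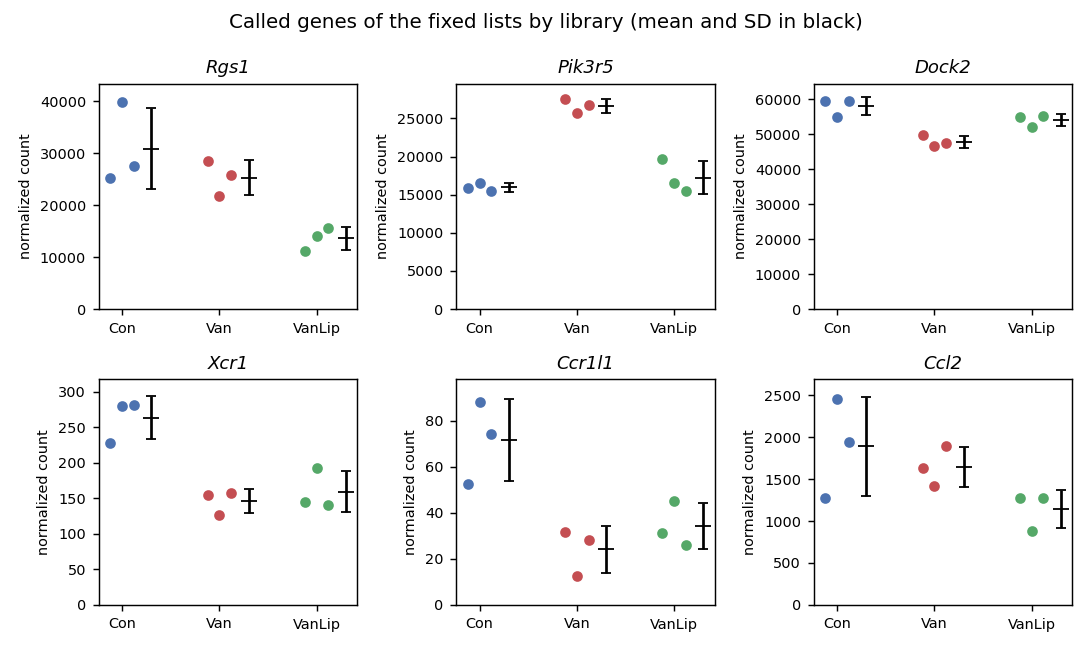
Normalized counts (vertical axes, from 0) of 6 called genes from the lists of other receptors, ligands and coupling genes in each library, with the group mean and SD in black. Pik3r5 is above 25000 only in the 3 Van libraries, and Rgs1 is at 15619 or under only in the 3 VanLip libraries.

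The genes most like Ccr2 over the 9 libraries were 9330133O14Rik, Ptpn7, Pkib, Arl2bp and Slx1b. Likeness was the mean absolute difference of z-scores of log2 normalized counts, which was 0.13 to 0.24 for these 5 and 1.09 for the median of 13503 genes. Ptpn7, for example, had group means of 1563 (Con), 1105 (Van) and 1668 (VanLip) normalized counts. For Cx3cr1 they were Cfap126, Gne, Pvrl4, Ppp1r7 and 2010315B03Rik, at 0.20 to 0.31 against a median of 1.08, and Gne averaged 1576, 1334 and 1764. These lists describe 9 libraries in 3 groups and share the depth difference of the VanLip libraries.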

How the data were processed

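Per the labels and the study's methods, the authors made stranded mRNA libraries, aligned reads to GRCm38 with HISAT2 2.2.1, and estimated expression with StringTie 2.1.3. They deposited FPKM per gene and expected counts per gene, which tximport derived and which are neither whole nor normalized. The annotation release was not given in the sources used here. Of the 26108 genes above 0, 99.0% of the identifiers were found in GENCODE M21. Groups and replicates came from the sample titles, and 0 sample columns were left unused.

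The main test was the Wald test of DESeq2 1.42.0 (R 4.3.3) on rounded expected counts, with all 9 libraries and group as the term, Benjamini-Hochberg adjustment over all genes, and an adjusted p of 0.05 or under as a call. Normalized counts are counts over DESeq2 size factors. Neither they nor the counts of the main test are numbers of fragments, which were fewer. The alternatives were edgeR 4.0.16, limma 3.58.1 on quantile-normalised log2 FPKM (pseudocounts 1 and 0.1, or only genes averaging 1 FPKM or more), TMM library sizes, a filter of 10 counts in 3 libraries, no independent filtering, only 2 groups, a replicate block, counts converted to fragments, VanLip thinned to 20090683 fragments, and each library left out in turn. The scripts were tested on simulated data. The size of 1 read was the commonest count between 0.5 and 2.5, bounds set after the counts were seen, and fragments assume the 75 bases that tximport takes as read length. Intervals cover 95% and rest on the fitted spread.

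Named genes were the 9 receptors, list genes called in at least 1 comparison, and the 5 genes most like Ccr2 or Cx3cr1 averaging 50 normalized counts or more; marker genes, Ccr9, Cxcr6, Ccr3 and Cmklr1 were named beside them. The members and lists were chosen with earlier results of these data known, and the promoters shown and the chromosome 9 region after the values were seen. Some genes of the lists are not reported here. Proteins were not analysed here.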

Additional observations from a re-analysis of the deposited data

How the results depend on the processing

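Of 531 refits of the 9 receptors under the alternatives, 492 kept both direction and side of the threshold, 10 lost a call, 7 gained one and 22 changed sign, none of these a call. Counts below are given in the order Van/Con, VanLip/Con, VanLip/Van, where the reported fit called 803, 1104 and 1777 genes. They were lowest in edgeR and limma, the latter also with FPKM as input and quantile scaling. edgeR called 189, 289 and 727, and limma called 36, 193 and 613 (pseudocount 1), 51, 259 and 642 (pseudocount 0.1), or 102, 398 and 858 (mean of 1 FPKM or more, where Cxcr2, Cxcr3 and Cxcr5 gave no value). Conversion to fragments gave 616, 844 and 1450, and thinning VanLip after that conversion 576, 733 and 1310. Leaving out 1 library gave 425 to 913, 606 to 1276 and 1142 to 1666 genes, lowest without Van replicate 2, Con replicate 1 and Van replicate 2. Receptors called for Van/Con were 0 in edgeR, the block and the 3 limma fits. For VanLip/Con they were 2 with the count filter and with only the 2 groups (Ccrl2 added), and 0 in limma with a pseudocount of 1. Leaving out 1 library gave 0 to 1, 1 to 2 and 3 to 4 receptors. Ccr2 was lost for Van/Con without Con replicate 1. Ccrl2 was gained for VanLip/Con when Van replicate 1, Van replicate 2 or VanLip replicate 3 was dropped, and for VanLip/Van when either of the last 2 was. The cause was not tested.

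Replicate numbers were shared between groups, but same-numbered libraries correlated at -0.065 to 0.123 over 13503 genes, so the numbers gave no pairing. With the replicate block 932, 1146 and 1644 genes were called. Ccr2 for Van/Con stood at -0.83 with an adjusted p of 0.191, whereas the Ccr2, Cx3cr1 and Cxcr4 calls of the VanLip comparisons were kept. Cxcr2 for VanLip/Con was -0.09 with the block.

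Signs changed only for log2 differences that were not called. With 1 library left out, those for Van/Con spanned -0.14 to 0.65 for Ccr1, -0.37 to 0.03 for Ccr7, -0.21 to 0.05 for Cxcr4 and -0.92 to 0.27 for Cxcr5. For VanLip/Con they spanned -0.04 to 0.36 for Ccr2 and -0.65 to 0.32 for Cxcr2. For VanLip/Van they spanned -0.11 to 0.96 for Ccr1, -0.28 to 0.12 for Ccr7, -0.48 to 0.49 for Cxcr2 and -0.72 to 0.47 for Cxcr5. Limma with a pseudocount of 1 put Cxcr5 for Van/Con at 0.00 and Cxcr2 for VanLip/Con at -0.00, and a pseudocount of 0.1 put the latter at -0.05. Conversion with thinning put Cxcr2 at -0.23 for VanLip/Con and -0.06 for VanLip/Van. The difference in the log2 ratio of Cx3cr1 to Ccr2 spanned 0.58 to 0.97, -0.13 to 0.28 and -0.95 to -0.48 with 1 library left out. Of 355 refits of called list genes that gave an adjusted p, 104 lost the call. Depth limits Cxcr2, Cxcr3, Cxcr5, Ccr1l1, Ccl12 and Cxcl3, which rest on few counts.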
